A study of Mus musculus with 15 samples.

Results

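The RNAs described here are the transcripts of mouse mitochondrial DNA, read in ribosome-protected fragments of eggs and early embryos. They were chosen by name alone: all rows of the deposited count table whose symbol starts with mt-, which are 37 of 55490 rows. The 37 rows are 2 ribosomal RNAs (rRNAs), 13 messenger RNAs (mRNAs) and 22 transfer RNAs (tRNAs), so every gene of the molecule had a row. All 37 matched a RefSeq gene on chromosome MT of GRCm38.p6. Together they took 1125821 of 8256457 counts (13.6%), and 1124988 of these (99.9%) fell in the rRNA rows mt-Rnr1 and mt-Rnr2.

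The study compared pulldowns of HA-tagged ribosomes from eggs and embryos of B6D2F1 females that were heterozygous (Het) or knockout (KO) for Eif4e1b, an oocyte relative of the cap-binding factor eIF4E. All donor females, controls included, carried Rpl22 HA, a tagged protein of the cytosolic large ribosomal subunit. M2 eggs (2 Het and 2 KO libraries), PN5 zygotes (3 Het and 3 KO) and early 2-cell embryos (3 Het and 2 KO) were used, and a library was made from a pool of about 200 cells at the first 2 stages and of about 100 embryos at the last. RNase I treatment (100 units, 45 min) preceded 4 h on anti-HA beads, and 22 PCR cycles were used. The genotype is that of the egg donor, and the label of the tag does not say in which cells it is expressed. The labels do not tie the libraries of a group to different animals. Each p-value therefore reflects just the scatter among these samples, which may be technical. In pooled cells, fewer mitochondria or cells and less RNA in each cannot be told apart. All libraries come from pulldowns, so a change in the amount recovered with the beads cannot be told apart from these either.

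Mitochondrial DNA is copied and transcribed inside the organelle, from both strands, into long transcripts that are cut into rRNAs, mRNAs and tRNAs. The 12S rRNA (mt-Rnr1) and the 16S rRNA (mt-Rnr2) form the small and the large subunit of the mitochondrial ribosome, whose proteins are all encoded in the nucleus and do not include Rpl22. The mRNAs encode subunits of respiratory chain complexes and of the ATP synthase, and the tRNAs serve translation in the organelle. Eggs hold a large stock of maternal mitochondria, which is passed to the embryo.

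Library totals ran from 93222 to 1201146 counts, and each of the 5 early 2-cell libraries (93222 to 170753 counts) was shallower than every egg or zygote library. Cytosolic rRNA took 58.9% to 92.0% of the counts of a library, and protein-coding rows were left with 1060 to 47467 counts. Eif4e1b was at 0 counts in all 15 libraries, so the genotype could not be checked from its own RNA. Of 15 oocyte marker rows 8 had counts (495 in all, 351 of them Npm2), and the defining zona pellucida genes Zp1, Zp2 and Zp3 were at 0 in all libraries. Of 19 cumulus and granulosa cell markers 7 had counts and 12 were at 0 in all libraries. A single gene, Cyp11a1 of steroid synthesis, held 561 of their 695 counts. Their summed level was 0.212% to 0.887% of protein-coding counts in PN5 KO and 0% to 0.0677% in PN5 Het. In M2 eggs the order was the other way, with 0.0584% to 0.822% in Het and 0% to 0.116% in KO, and these ranges overlap. Early 2-cell libraries held 1 count of these markers. The part of these cells in the mitochondrial values was not tested. Sperm and blood marker rows were at 0. Within every group, replicates differed by more than the sampling noise of independent reads (chi-square per degree of freedom from 21.7), so no library was counted as a copy of another. This test takes PCR copies for separate molecules.

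The rRNA rows were among the most counted rows of the table. mt-Rnr2 (MT:1094-2675, 1582 bases, heavy strand transcript) was the row with the 2nd or 3rd highest count in each library, and mt-Rnr1 (MT:70-1024, 955 bases) the 4th or 5th. Outside cytosolic rRNA, the mitochondrial rows made up most of what was counted, at 77.9% ± 8.62 of the remaining counts (SD, n = 15), with a lowest share of 62.3% and a highest of 91.7%. The list of cytosolic rRNA rows was completed after the table had been seen. As a share of all rRNA counts, mitochondrial rRNA ranged from 5.67% to 37.9%.

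In the plot of counts along the molecule, the contrast between the classes spans several powers of 10. Per kilobase of annotated length and summed over the 15 libraries, mt-Rnr2 had 653820 counts, mt-Rnr1 94915, the tRNA rows together 273 and the mRNA rows together 37.1. The mRNA rows held 423 counts (0.0376% of the mitochondrial counts) and the tRNA rows 410 (0.0364%). The remaining values for these classes are therefore counts of a few reads per library.

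**Figure D1:**
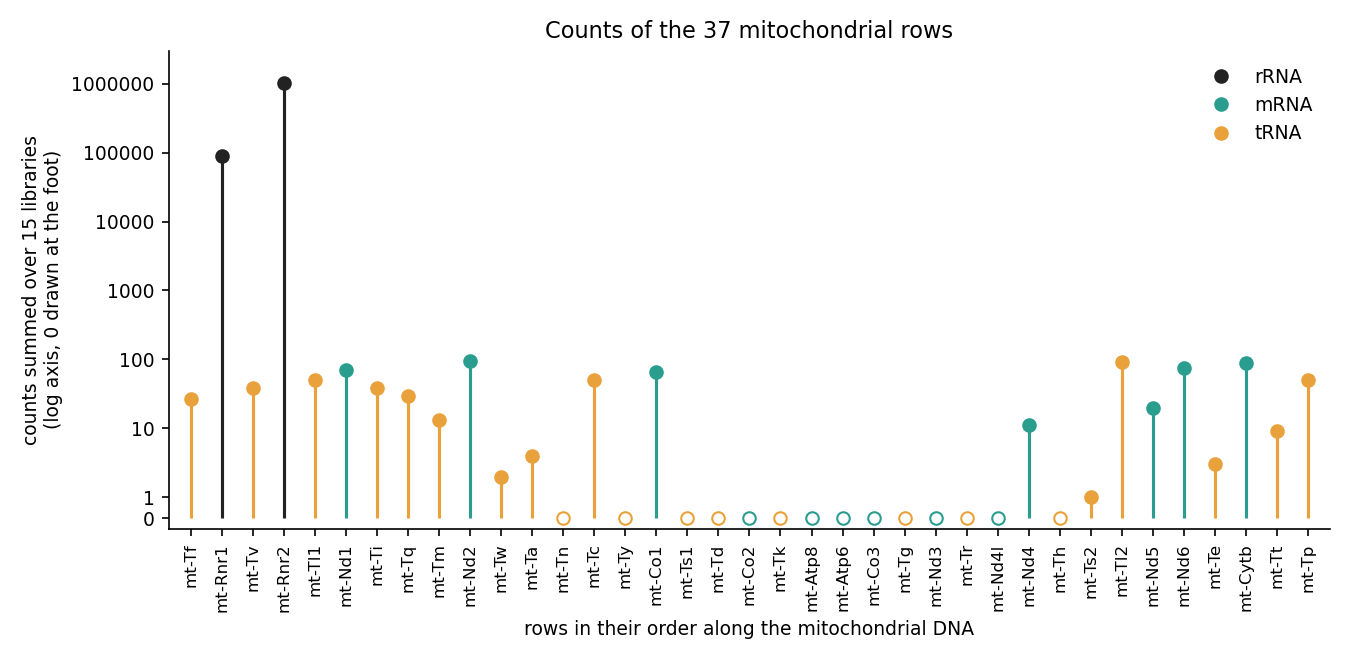
Counts of the 37 mitochondrial rows summed over the 15 libraries, in gene order along the mitochondrial DNA, on a log axis with 0 drawn at the foot as open circles. The rRNAs mt-Rnr1 (90644 counts) and mt-Rnr2 (1034344) stand above all other rows, which reach at most 94, and 11 neighbouring rows from mt-Ts1 to mt-Nd4l are at 0.

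The 12S rRNA, mt-Rnr1, took about 1% of a library. Its share of all counts in M2 eggs was 0.750% and 0.443% in Het and 1.05% and 1.17% in KO. In PN5 zygotes it was 2.14%, 0.868% and 1.08% in Het and 1.30%, 1.28% and 0.984% in KO. Early 2-cell libraries had 1.12%, 0.606% and 1.17% in Het and 0.958% and 1.85% in KO. Both KO libraries of M2 eggs lay above both Het libraries, while the genotypes overlapped at the other stages. Of the 495 genes that passed the filter on low counts, 7.07% had every M2 KO share above every M2 Het share, so such a separation was not rare in these data. The lowest share of all 15 libraries was M2 Het replicate 2 and the highest PN5 Het replicate 1.

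The 16S rRNA, mt-Rnr2, took a larger share in every library and had 1 library far from the others. Its share in M2 eggs was 10.8% and 5.09% in Het and 8.27% and 7.69% in KO. In PN5 zygotes it was 16.1%, 9.10% and 13.1% in Het and 10.8%, 8.26% and 35.0% in KO. Early 2-cell libraries had 8.51%, 8.25% and 14.6% in Het and 8.58% and 7.18% in KO. PN5 KO replicate 3 was 2.18 times the next highest share and supplied 30.2% of the mt-Rnr2 counts of all libraries. The same library had the lowest cytosolic rRNA share of the 15, at 58.9% against 77.0% to 92.0% in the other 14. It also held 340 of the 561 Cyp11a1 counts and the highest level of cumulus and granulosa markers, 0.887% of protein-coding counts, whose part in its mt-Rnr2 share was not tested. Its mt-Rnr1 share, 0.984%, lay inside the range of the others. Without it, the PN5 KO mean of mt-Rnr2 went from 18.02% ± 14.8 (SD, n = 3) to 9.53% ± 1.80 (SD, n = 2), against 12.8% ± 3.51 (SD, n = 3) in PN5 Het. The genotypes overlapped at every stage for this rRNA.

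With each estimated count taken as an independent read, the sampling error of these shares was small. The widest 95% Wilson interval of a single library reached 0.179 percentage points to either side for mt-Rnr2 and 0.0851 for mt-Rnr1. These intervals leave out the spread between replicates. They also take PCR copies, which were not marked with molecular identifiers, for separate molecules, so they are too narrow as a counting error of molecules. In every group the SD between replicates was larger than these widths. For mt-Rnr1 the intervals of PN5 KO replicates 1 and 2 overlapped, at 1.27% to 1.32% and 1.24% to 1.31%.

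**Figure D2:**
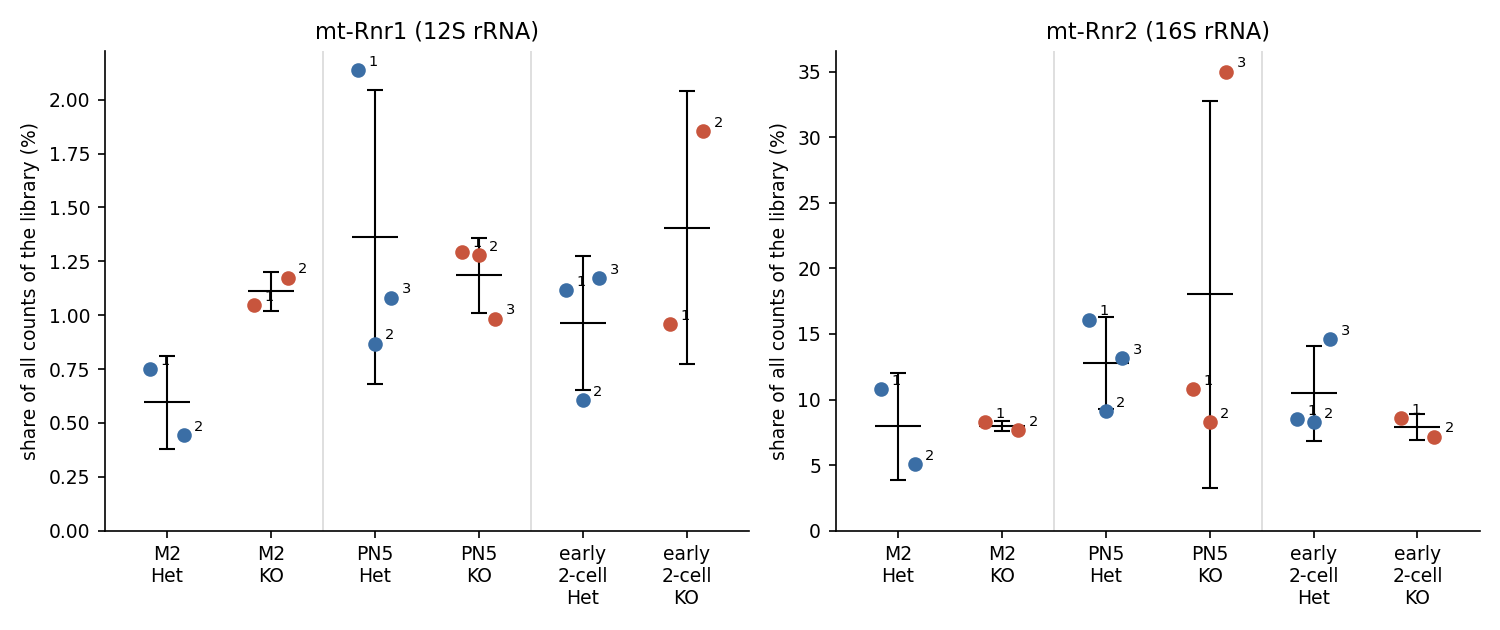
Share of all counts of a library (%, axis from 0) taken by mt-Rnr1 (left) and mt-Rnr2 (right), with 1 point per library labelled by replicate number and horizontal bars with error bars for the group mean and SD. Both M2 KO points of mt-Rnr1 (1.05% and 1.17%) lie above the M2 Het points, and PN5 KO replicate 3 stands at 35.0% for mt-Rnr2.

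Whether the counts of either rRNA in these pulldowns differed with donor Eif4e1b genotype was tested in 2 ways. In the edgeR quasi-likelihood fit of the whole table, 7 of the 37 members passed the filter on low counts: mt-Rnr1, mt-Rnr2, mt-Nd1, mt-Nd2, mt-Co1, mt-Cytb and mt-Tl2. None of these 7 was called in KO against Het in M2 eggs, PN5 zygotes or early 2-cell embryos, or averaged over the stages, where 0% of the 495 genes were called in each (edgeR adjusted p under 0.05). At an unadjusted p under 0.05, 1.21%, 7.07%, 5.05% and 4.04% of all genes but 0 of the 7 members passed in these comparisons. Neither limma-voom nor DESeq2 called a member in them, where limma-voom called 0 and DESeq2 2, 2, 4 and 2 of the 495 genes.

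For mt-Rnr1, the fitted log2 fold change of KO over Het was 1.11 (SE 0.92) in M2 eggs, -0.69 (SE 0.74) in PN5 zygotes and 0.35 (SE 0.82) in early 2-cell embryos (edgeR adjusted p = 1 in each). For mt-Rnr2 it was 0.37 (SE 0.85), -0.22 (SE 0.70) and -0.51 (SE 0.79), again with an edgeR adjusted p of 1 in each. The sign of the mt-Rnr2 value in PN5 zygotes depended on the scaling: it was 0.50 when libraries were scaled by their totals alone. Averaged over the stages, the values were 0.26 (SE 0.48) for mt-Rnr1 and -0.12 (SE 0.45) for mt-Rnr2, with edgeR adjusted p = 1.00. The KO effects of successive stages did not differ past the threshold for any of the 7 members (lowest edgeR adjusted p = 0.956, for mt-Rnr1 and mt-Cytb between PN5 zygotes and M2 eggs). For both of these steps 0% of the 495 genes were called, and 0 members and 5.25% of genes passed an unadjusted p under 0.05.

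The shares were tested by exact permutation of the genotypes, two-sided, with adjustment over the 18 tests made on the shares and on the ratio of the rRNAs. Folds given with these tests come from means of log2 values, so they can differ from the quotient of the means printed beside them. The mt-Rnr1 share was 1.92-fold higher in KO than in Het M2 eggs (means 1.11% ± 0.0904 and 0.596% ± 0.217, SD, n = 2 each). The exact permutation p was 0.333 (adjusted p = 0.75), which is the smallest p that 2 against 2 libraries can give. Averaged over the stages, the mt-Rnr1 share was 1.37-fold higher in KO, with an exact permutation p of 0.142 (adjusted p = 0.75). For mt-Rnr2 the KO and Het shares differed by -0.01 log2 units averaged over the stages (exact permutation p = 0.979, adjusted p = 1). With 3 against 3 or 3 against 2 libraries, as in zygotes and 2-cell embryos, the exact test cannot go below 0.1. In M2 eggs the difference in the mt-Rnr1 share was larger than the SD of either genotype, but 2 against 2 libraries could not have passed the threshold. None of the other share differences between the genotypes passed it.

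The balance between the rRNAs was read as the ratio of mt-Rnr2 to mt-Rnr1 counts, which does not depend on how a library is scaled. Per kilobase, the ratio would be 1 if both rRNAs were covered evenly and equally. It was 6.74 ± 4.45 per kilobase (SD, n = 15), and every library had more counts per kilobase on the 16S rRNA, from 2.34 to 21.5. Without PN5 KO replicate 3 it was 5.69 ± 1.86 (SD, n = 14).

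In counts, the ratio in M2 eggs was 14.4 and 11.5 in Het and 7.90 and 6.55 in KO. In PN5 zygotes it was 7.52, 10.5 and 12.2 in Het and 8.34, 6.46 and 35.6 in KO. At the early 2-cell stage it was 7.63, 13.6 and 12.5 in Het and 8.96 and 3.87 in KO. Both M2 KO libraries lay below both M2 Het libraries, the other stages overlapped, and PN5 KO replicate 3 was 2.46 times the next highest library. Of the shares of the 495 single genes, 9.29% had every M2 KO value below every M2 Het value, while no such background was computed for ratios of 2 genes.

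The ratio was 1.79-fold lower in KO than in Het M2 eggs (means 7.22 ± 0.957 and 12.95 ± 2.09, SD, n = 2 each; exact permutation p = 0.333, adjusted p = 0.75, the smallest p possible being 0.333). In early 2-cell embryos it was 1.85-fold lower in KO (6.42 ± 3.60, n = 2, against 11.2 ± 3.18, n = 3, SD; exact permutation p = 0.3, adjusted p = 0.75). In PN5 zygotes its log2 difference was 0.33 with replicate 3 of the KO and -0.42 without it. Averaged over the stages, the ratio was 1.38-fold lower in KO (exact permutation p = 0.224, adjusted p = 0.75). Leaving out PN5 KO replicate 3 took this averaged log2 difference from -0.46 to -0.72, with an exact permutation p of 0.0117 and an adjusted p of 0.21. The labels number the 3 replicate 3 libraries last of all samples. Without all 3 of them, an alternative chosen after seeing the data, the averaged log2 difference was -0.63 (exact permutation p = 0.0463, adjusted p = 0.5). None of these values passed the threshold after adjustment.

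**Figure D3:**
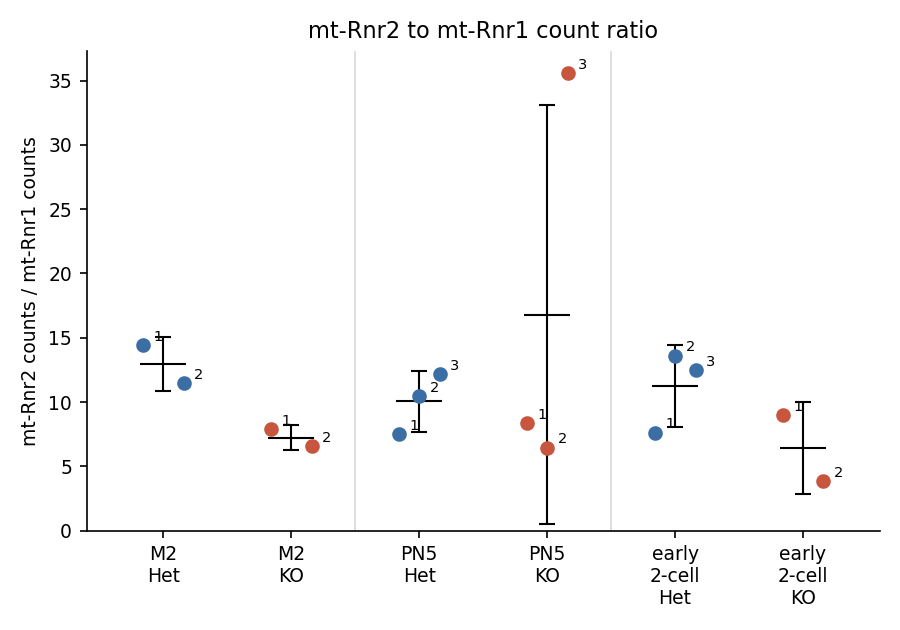
Ratio of mt-Rnr2 to mt-Rnr1 counts in each library (axis from 0), with points labelled by replicate number and the group mean with SD. KO points lie at 6.55 and 7.90 in M2 eggs, below the Het points at 11.5 and 14.4, and PN5 KO replicate 3 stands apart at 35.6.

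Among the cytosolic rRNA rows, the large 28S rRNA exceeded the small 18S rRNA by a larger factor in raw counts. These ratios are not scaled to length and concern fragments left after RNase treatment. The part of the tag on the large subunit was not tested. The ratio of 28S to 18S counts ran from 62.2 to 755 over the same libraries, with a median of 170.4, against 3.87 to 35.6 and a median of 8.96 for mt-Rnr2 to mt-Rnr1. In each of the 15 libraries the cytosolic ratio was the higher. The libraries were not ordered alike: PN5 KO replicate 3, highest for the mitochondrial ratio, had a cytosolic ratio of 529.7, below the 755 of PN5 Het replicate 3 and the 739 of PN5 KO replicate 1.

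Between stages, averaged over the genotypes, the rRNA shares were higher in PN5 zygotes than in M2 eggs without passing a test. The mt-Rnr2 share averaged 15.4% ± 10.02 (SD, n = 6) in zygotes and 7.97% ± 2.35 (SD, n = 4) in eggs. From log2 means within genotypes, the difference was 1.75-fold (exact permutation p = 0.12, adjusted p = 0.75). The mt-Rnr1 share averaged 1.27% ± 0.455 and 0.854% ± 0.327, and was 1.52-fold higher in zygotes by the same log2 means (exact permutation p = 0.09, adjusted p = 0.75). For both rRNAs the stages overlapped, and 0.202% of the 495 genes had every zygote share above every egg share. In edgeR the log2 fold changes were 1.01 (SE 0.57, adjusted p = 0.911) for mt-Rnr2 and 0.66 (SE 0.60, adjusted p = 1.00) for mt-Rnr1, with 0 of 7 members and 0% of all genes called (0 members and 4.44% of genes at an unadjusted p under 0.05).

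From PN5 zygotes to early 2-cell embryos the mt-Rnr2 share was 1.52-fold lower by log2 means within genotypes (exact permutation p = 0.19, adjusted p = 0.75). Its mean at the later stage was 9.43% ± 2.96 (SD, n = 5). The edgeR log2 fold change of mt-Rnr2 was -1.39 (SE 0.54, adjusted p = 0.15), and 0.808% of the 495 genes but none of the 7 members was called. This step depended on scaling, since the TMM factors spanned a 7.46-fold range (0.387 to 2.89) and the median log2 fold change of all genes moved from -2.01 with TMM to -1.24 with DESeq2 size factors. Relative to the median of all genes, mt-Rnr2 lay higher, not lower, under both scalings. That median takes in rows with few counts at the later stage, where libraries held 1733 to 8996 counts outside rRNA. The part of such rows in the median was not tested. The mt-Rnr2 value was -0.39 with DESeq2 size factors and -0.74 with library totals alone, and it turned to 0.0094 with a filter at a mean of 50 counts. Leaving out PN5 KO replicate 2 gave an edgeR adjusted p of 0.0426. Every fit without a library of M2 eggs or of early 2-cell KO left 1 library in a group. Without an M2 library, the fits tested 839 to 1058 genes in place of 495. Calls of all fits with 1 library in a group are not read here, M2 KO replicate 1 included. Over all fits that left out single libraries, these included, the log2 fold change of mt-Rnr2 was between -1.95 and -0.95. For mt-Rnr1 the value was -0.61 (SE 0.56, adjusted p = 0.475) with TMM and turned to 0.29 with DESeq2 size factors.

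**Figure D4:**
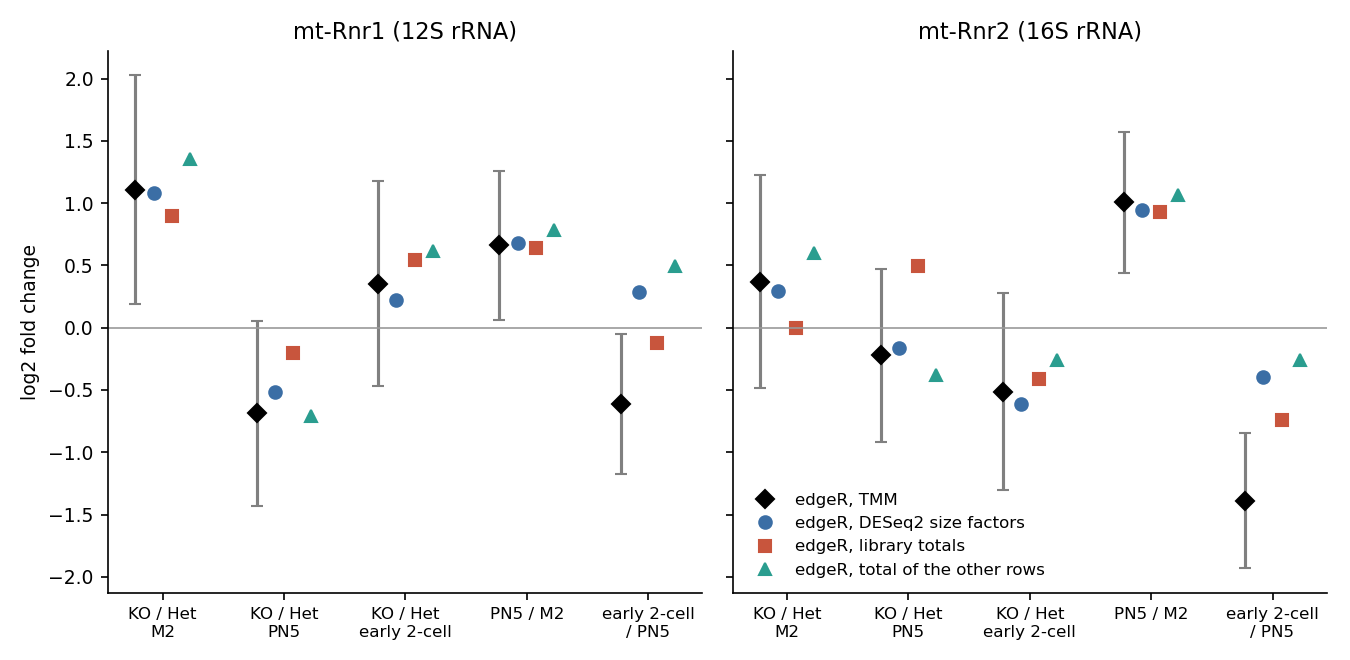
Log2 fold changes of mt-Rnr1 (left) and mt-Rnr2 (right) in 5 comparisons, from edgeR fits under 4 scalings, with SE bars on the TMM values. The early 2-cell against PN5 value of mt-Rnr1 is -0.61 with TMM and 0.29 with DESeq2 size factors, and the KO against Het value of mt-Rnr2 in PN5 is -0.22 with TMM and 0.50 with library totals.

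The 13 mRNA rows held 423 counts in 15 libraries. Of them 7 had counts and 6 had none, and the 5 highest held 392 (92.7%). A library had counts in 1 to 7 of the 13 rows, with a median of 4. As a share of protein-coding counts, mitochondrial mRNAs ran from 0.0260% in PN5 KO replicate 1 to 1.92% in early 2-cell KO replicate 2. The lowest, median and highest shares over all libraries were 0.0260%, 0.152% and 1.92%, and Het and KO libraries overlapped at each stage. The strand used in counting was not stated, so reads from overlapping genes or from the opposite strand of a gene cannot be told apart.

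Complex I, which takes electrons from NADH, accounted for most of the mRNA rows with counts. mt-Nd2 (MT:3914-4951), a membrane subunit of this complex, was the most widely seen, with 94 counts in 14 of 15 libraries. It had 7 and 1 counts in M2 Het, 0 and 8 in M2 KO, 14, 14 and 9 in PN5 Het, and 1, 6 and 2 in PN5 KO. The early 2-cell libraries held 1, 9 and 4 counts in Het and 1 and 17 in KO, so its highest count came from a shallow library. All 3 PN5 Het counts lay above the PN5 KO counts, although as shares of the library totals they overlapped.

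The log2 fold change of mt-Nd2 in KO over Het was -0.73 (SE 1.80) in M2 eggs, -2.00 (SE 1.49) in PN5 zygotes and 1.19 (SE 1.61) in early 2-cell embryos (edgeR adjusted p = 1 in each). In early 2-cell embryos over PN5 zygotes it was 2.38 (SE 1.11, edgeR adjusted p = 0.201). DESeq2 called it there, with a log2 fold change of 3.12 and an adjusted p of 0.0272, but it called 53 of the 495 genes in this comparison. The edgeR value ran from -0.03 to 2.82 when single libraries were left out. mt-Nd2 and mt-Rnr2 were the only members past an unadjusted p of 0.05 in this comparison, where 24.6% of all genes were.

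mt-Nd6 (MT:13552-14070), another subunit of complex I and the only mRNA transcribed from the light strand, had 75 counts in 12 libraries. Per kilobase it was the highest of the mRNA rows, at 144.5 counts against 90.6 for mt-Nd2, 76.9 for mt-Cytb, 73.1 for mt-Nd1 and 42.1 for mt-Co1. Its counts were 14 and 7 in M2 Het, 2 and 9 in M2 KO, 9, 6 and 7 in PN5 Het, and 0, 3 and 15 in PN5 KO. The 5 early 2-cell libraries held 3 of its counts in all. It overlaps the end of mt-Nd5 on the other strand, and mt-Nd6 did not pass the filter on low counts.

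mt-Nd1 (MT:2751-3707), which lies next to the 16S rRNA across the tRNA mt-Tl1, had 70 counts in 9 libraries. Its highest counts were 20 in M2 KO replicate 2 and 12 in each of PN5 Het replicate 2 and early 2-cell Het replicate 3. mt-Nd5 (MT:11742-13565) and mt-Nd4 (MT:10167-11544), long subunits of the proton-pumping arm, had 20 and 11 counts. Per kilobase these were 10.96 and 7.98, the lowest of the 7 mRNA rows with counts.

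mt-Cytb (MT:14145-15288), the cytochrome b of complex III, had 88 counts but in only 5 libraries. They fell as 39 in PN5 Het replicate 3, 19 in PN5 KO replicate 3, 15 in M2 KO replicate 2, 12 in early 2-cell Het replicate 3 and 3 in PN5 Het replicate 2. All 3 replicate 3 libraries were thus among its 4 highest, and 10 libraries were at 0. mt-Co1 (MT:5328-6872), the catalytic subunit of cytochrome c oxidase, had 65 counts in 8 libraries, with 15 in PN5 Het replicate 2, 13 in M2 Het replicate 1 and 12 in M2 KO replicate 2. Over the 8 comparisons the lowest edgeR adjusted p was 0.372 for mt-Cytb, 0.746 for mt-Nd1 and 1.00 for mt-Co1.

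**Figure D5:**
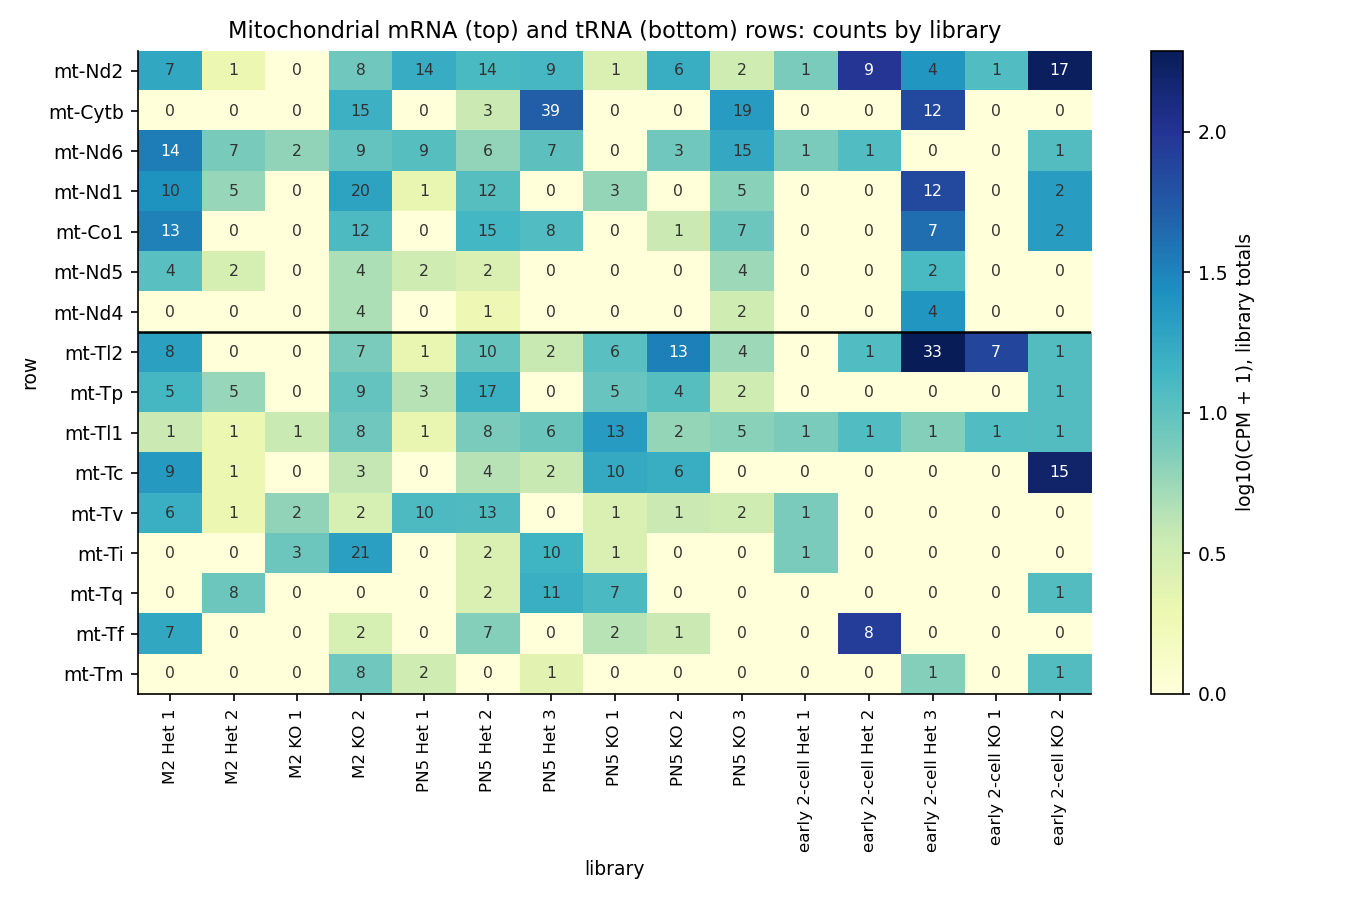
Counts (numbers) and log10 of CPM plus 1 (colour) of the 7 mitochondrial mRNA rows and the 9 tRNA rows with at least 10 counts, by library. Counts reach 39 at most (mt-Cytb in PN5 Het 3), and many cells are 0.

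The 6 mRNA rows without a count are mt-Co2 and mt-Co3 of cytochrome c oxidase, mt-Atp6 and mt-Atp8 of the ATP synthase, and mt-Nd3 and mt-Nd4l of complex I. They are neighbours. From mt-Ts1 to mt-Nd4l (MT:6870-10173, 3304 bases), 11 consecutive rows, 6 of mRNAs and 5 of tRNAs, were at 0 in all 15 libraries. With 3 counts taken as the upper limit of a 0, and reads as independent, this allows up to 0.363 CPM (counts scaled to the library total) over the summed libraries. The limit does not hold if reads that match several places were dropped. The 6 mRNAs sum to 2998 bases, and the 7 mRNA rows with counts gave 50.3 counts per kilobase over 8405 bases. On either side of the run, mt-Co1 had 65 counts and mt-Nd4 had 11.

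Nuclear pseudogenes that match mt-Atp6 and mt-Nd4l of this stretch in length are annotated. Their sequences were not compared with the mitochondrial ones, and how far nuclear copies extend along the run was not examined. RefSeq lists the pseudogenes Gm10222 (chr1:24612404-24612700, 297 bases, the length of mt-Nd4l) and Gm10925 (chr1:24613971-24614651, 681 bases, the length of mt-Atp6), and gives mt-Atp6 as a synonym of the second. They lie 1270 bases apart, against 1269 between mt-Atp6 and mt-Nd4l on chromosome MT. The rows of both pseudogenes were at 0 in all libraries, as were all 8 rows of the list of nuclear copies. Gm10222 was chosen after its values were seen. The treatment of reads that match both places was not stated, and their part in the run of zeros was not tested.

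The 22 tRNA rows held 410 counts. Of them 14 had counts, 9 at least 10, and 8 had none, and the 5 highest rows held 284 (69.3%). Per kilobase the tRNA rows stood above the mRNA rows, at 273 against 37.1 counts. The tRNA rows are just 59 to 75 bases long, and the part of reads reaching over from neighbouring rows was not tested. A library had counts in 2 to 10 tRNA rows.

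mt-Tl2 (MT:11671-11741), 1 of the leucine tRNAs, was the highest with 93 counts in 12 libraries, and the only tRNA to pass the filter on low counts. It had 8 and 0 counts in M2 Het, 0 and 7 in M2 KO, 1, 10 and 2 in PN5 Het, and 6, 13 and 4 in PN5 KO. Those of early 2-cell embryos held 0, 1 and 33 counts in Het and 7 and 1 in KO. A single library, early 2-cell Het replicate 3, held 35.5% of its counts, and its lowest edgeR adjusted p over the 8 comparisons was 0.404.

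mt-Tl1 (MT:2676-2750), the other leucine tRNA, directly follows the 16S rRNA and was the only row besides the rRNAs with counts in all 15 libraries. It was at 1 count in 9 of them and reached 13 in PN5 KO replicate 1, for 51 counts in all, or 0.00493% of the mt-Rnr2 count. The tRNAs that border the rRNAs, mt-Tf (27 counts), mt-Tv (39) and mt-Tl1, held 28.5% of the tRNA counts.

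The light-strand proline and cysteine tRNAs, mt-Tp and mt-Tc, had 51 counts in 9 libraries and 50 in 8. For mt-Tc, 15 counts came from early 2-cell KO replicate 2 and 10 from PN5 KO replicate 1, while mt-Tp was highest in PN5 Het replicate 2 with 17. The isoleucine tRNA mt-Ti had 38 counts, of which 21 were in M2 KO replicate 2. The glutamine tRNA mt-Tq had 29 counts in 5 libraries, and the methionine tRNA mt-Tm 13 in 5. By strand, the 14 heavy-strand tRNAs held 273 counts (9 with counts) and the 8 light-strand tRNAs 137 (5 with counts). The remaining 5 rows with counts had 1 to 9 each.

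The nuclear partners of these RNAs were sparsely counted. Of all protein-coding genes, 17.8% had a count and 7.84% at least 10. Of 77 rows for nuclear genes of the respiratory chain and the ATP synthase 14 (18.2%) had counts, 96 in all. Atpif1, an inhibitor of the ATP synthase and not a subunit, had 26, of which 25 were in M2 KO replicate 2. Ndufv1 of complex I had 12, all in PN5 Het replicate 2. Cox5b and Atp5c1 followed with 11 and 10. Of 83 rows for mitochondrial ribosomal proteins 11 (13.3%) had counts, 64 in all, led by Mrpl52 with 23 and Ptcd3 with 13. Of 52 rows for factors of mitochondrial DNA upkeep, transcription, RNA processing and translation 9 (17.3%) had counts, 38 in all, led by the rRNA methyltransferase Tfb1m and the poly(A) polymerase Mtpap with 10 each. At least 10 counts were reached by 4, 2 and 2 rows of these lists. None of their rows passed the filter on low counts, so 0 were tested in any comparison.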

How the data were processed

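A single table was deposited by the authors, with estimated counts per gene as unscaled whole numbers. The submitters' processing notes name the GRCm38 build and the tools deepTools (3.5.1), StringTie (2.1.4), STAR (2.7.6a) and cutadapt. The derivation of the counts, their strand and the treatment of reads with several matches are not given in the sources used here. Such reads can move between a mitochondrial row and its nuclear copies.

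Counts were rounded and fitted with edgeR 4.0.16 in R 4.3.3: filterByExpr (minimum count 10, leaving 495 genes), TMM, 1 quasi-likelihood model of the 6 groups over 15 libraries (9 residual degrees of freedom), 8 comparisons, and a Benjamini-Hochberg adjusted p under 0.05 over all genes. Where the text gives an adjusted p of 1.00, it was 1 after rounding. Shares of library totals and the rRNA ratio were tested on the log2 scale by exact permutation (numpy 2.4.6), 18 tests in all. Wilson intervals came from scipy 1.17.1. Sums over members were not tested. Both procedures were run on simulated data. For edgeR, recovery was required just for large changes at a spread that was set low. It does not tell which changes could be found at the spread of these data.

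Groups came from the labels. Alternatives were other scalings, filters, tools (DESeq2, limma-voom), share denominators, a replicate block and leaving out libraries. Members past the filter are described in full, those with at least 10 counts are named, and of each list up to 4. Gene lengths and positions are RefSeq's. The members and lists were chosen with earlier results of these data known.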

Additional observations from a re-analysis of the deposited data

How the results depend on the processing

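No member was called by edgeR in any comparison, with the planned settings or the 2 added ones, except between early 2-cell embryos and PN5 zygotes. There DESeq2 called 1 member (mt-Nd2) among 53 of the 495 genes. In edgeR the number of members called ran from 0 to 1 when single libraries were left out, with mt-Rnr2 called without PN5 KO replicate 2. Every fit without a library of M2 eggs or of early 2-cell KO left 1 library in a group. Calls of these fits are not read here, while their fold changes are part of the ranges below. The other changes listed here were of sign, in values that had passed no test, and their cause was not tested.

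Log2 fold changes of KO over Het for mt-Rnr2 turned with library totals alone to -0.000958 in M2 eggs, 0.50 in PN5 zygotes and 0.028 averaged over the stages, and the difference between the KO effects in PN5 zygotes and M2 eggs to 0.50. In PN5 zygotes mt-Rnr2 was 0.0098 with no filter on low counts and 0.029 with a mean of at least 50 counts. In early 2-cell embryos over PN5 zygotes, mt-Rnr1 turned to 0.29 with DESeq2 or its size factors, 0.49 with library sizes that leave out cytosolic rRNA and mitochondrial rows, and 0.66 with a mean of at least 50 counts, where mt-Rnr2 was 0.0094. With the library sizes that leave out those rows, the KO effect on mt-Rnr2 in early 2-cell embryos minus that in PN5 zygotes was 0.12.

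In log2 shares, with cytosolic rRNA as the denominator the KO difference was 0.027 for mt-Rnr1 in PN5 zygotes and 0.015 for mt-Rnr2 averaged over the stages. With counts outside cytosolic rRNA it was -0.043 for mt-Rnr2 in PN5 zygotes, and mt-Rnr1 in early 2-cell embryos over PN5 zygotes was 0.42. Untransformed, the averaged mt-Rnr2 difference was 0.896 percentage points.

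Replicates 1 and 2 alone, chosen after seeing the data, gave KO differences in PN5 zygotes of 0.000294 for mt-Rnr1 in edgeR, -0.36 for the mt-Rnr2 share and -0.27 for the ratio, and -0.25 for the ratio of PN5 zygotes over M2 eggs.

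Nothing in the labels says that equal replicate numbers pair libraries, and deviations of same-numbered libraries correlated between -0.340 and 0.0961. With the replicate number as a block, 0 members were called in every comparison, and the averaged mt-Rnr2 share difference was 0.0811. In M2 eggs, where that correlation was -0.148, crossed numbers, an alternative added after seeing the data, gave 0 called genes, as the block did.

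Leaving out single libraries turned the sign of some values. For the KO difference in shares, mt-Rnr1 in PN5 zygotes ran from -0.37 to 0.28, mt-Rnr2 in M2 eggs from -0.44 to 0.65, in PN5 zygotes from -0.40 to 0.64, and averaged from -0.22 to 0.17. The ratio ran from -0.42 to 0.81 in PN5 zygotes and from -0.18 to 0.44 for PN5 zygotes over M2 eggs, and the mt-Rnr1 share of early 2-cell embryos over PN5 zygotes from -0.37 to 0.10. In edgeR, the KO fold change of mt-Rnr2 ran from -0.94 to 0.45 in PN5 zygotes and from -0.33 to 0.15 averaged, and that of mt-Rnr1 from -0.13 to 1.23 in early 2-cell embryos. For mt-Nd2 it ran from -4.61 to 1.00 in M2 eggs, from -1.83 to 2.95 in early 2-cell embryos and from -1.68 to 0.26 averaged, and early 2-cell embryos over PN5 zygotes from -0.034 to 2.82. Between PN5 zygotes and M2 eggs the KO effect differed by -3.01 to 2.68 for mt-Nd2 and -1.33 to 0.086 for mt-Rnr2, and between early 2-cell embryos and PN5 zygotes by -0.000122 to 4.52 and -0.96 to 0.49.

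Depth limits the mRNA and tRNA rows: a count of 0 allows between 2.50 and 32.2 CPM, depending on the library.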
